A study of Mus musculus with 3 samples.

Results

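The genes described here are the 10 that carry out calcium release, uptake and buffering in skeletal muscle fibres, out of 36638 genes or transcripts with a probe on the arrays. They were chosen by name and not by any measured value, and all probes whose RefSeq accession belongs to one of them were taken, which gave 13 probes. They are Ryr1, Cacna1s and Cacng1 of the release machinery, the buffers Casq1, Casq2 and Pvalb, the pumps Atp2a1 and Atp2a2, and the pump inhibitors Sln and Pln. RNA came from the muscle the labels call SOL, of male C57BL/6 mice aged 8 weeks on regular chow. KO mice carried the genotype Mettl21cLacZ/LacZ, and WT mice were labelled wildtype. Each of 3 two-colour arrays held 1 KO sample in Cy5 and 1 WT sample in Cy3, so there were 3 samples of each genotype. The dyes were never exchanged, so a dye preference of a probe and the genotype cannot be told apart. How the allele was made, whether muscles were pooled and which mice were littermates are not given in the sources used here.

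In a muscle fibre an action potential runs along the transverse tubules and moves the voltage sensor, of which Cacna1s is the main subunit. The sensor opens the ryanodine receptor Ryr1, and calcium leaves the sarcoplasmic reticulum, where it had been held by the calsequestrins. Parvalbumin and the SERCA pumps then take calcium out of the cytosol, and the small membrane proteins sarcolipin and phospholamban slow the pumps. Fast fibres mainly use the pump encoded by Atp2a1 and slow fibres the one encoded by Atp2a2, which heart muscle also uses.

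The arrays measured 7424 genes or transcripts well enough to be tested, and 22.5% to 22.9% of spots in the KO channel and 20.4% to 23.6% in the WT channel were well above background. All 3 arrays lay on 1 slide. The targeted gene Mettl21c gave processed signals of 200.4, 32.3 and 45.4 in KO and 7527, 3677 and 4486 in WT on arrays 1 to 3, and the KO channel was above background on 1 array. Its log2 ratio of KO over WT was -2.45 (SD 0.48, n = 3, limma adjusted p = 0.0175), and without array 3 the adjusted p was 0.0557. With KO at background on 2 arrays the size of this ratio depends on the offset, and the processed signals gave -6.23 (SD 0.87, n = 3). By their brightest probes, each of 8 skeletal muscle and 8 slow fibre markers was above background on at least 1 array, while 5 of 6 heart markers (Nppa, Nppb, Tnni3, Tnnt2 and Myl7) never were. The sixth heart marker, Myh6, had a mean log2 ratio of 0.027. The summed signal of the red blood cell markers was 77672 to 129804 in KO, against 32844 to 53834 in WT, and its part in the results was not tested.

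Of the 10 calcium genes 8 were bright enough to be tested, and 0 passed an adjusted p of 0.05, against 0.0404% of all tested genes. By the brightest probe of each gene, the lowest ratios belonged to the pumps: Atp2a2 was 2.21-fold lower in KO and Atp2a1 1.57-fold lower. These were the 2 genes whose KO signals all lay below all WT signals, a separation found in 3.77% of all tested genes. By processed signals the second tested probe of Atp2a2 had KO above WT on each array, and its mean log2 ratio after loess was 0.086. No calcium gene had all KO signals above all WT signals, as 2.67% of all genes did. Without adjustment, 3 calcium genes were lower in KO at a limma p under 0.05 (Atp2a1, Atp2a2 and Cacng1) and 0 were higher, against 7.53% lower and 5.9% higher over all genes. The median log2 ratio of the 8 tested genes was -0.20, set beside -0.0027 over all 7424, and on arrays 1 to 3 it was -0.065, -0.30 and -0.37. The mean ratio was below 0 for 7 of the 8, or 87.5%, where 50.9% of all genes were below 0. With centring and no loess it was below 0 for all 8, with a median of -0.70. Genes of like intensity then also lay below 0, with medians from -0.16 beside Casq2 to -0.45 beside Atp2a1. Sln, at -0.35, was not below its neighbours, whose median was -0.37. In RNA of whole muscle, fewer fibres or cells of a type and less RNA per cell cannot be told apart.

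**Figure D1:**
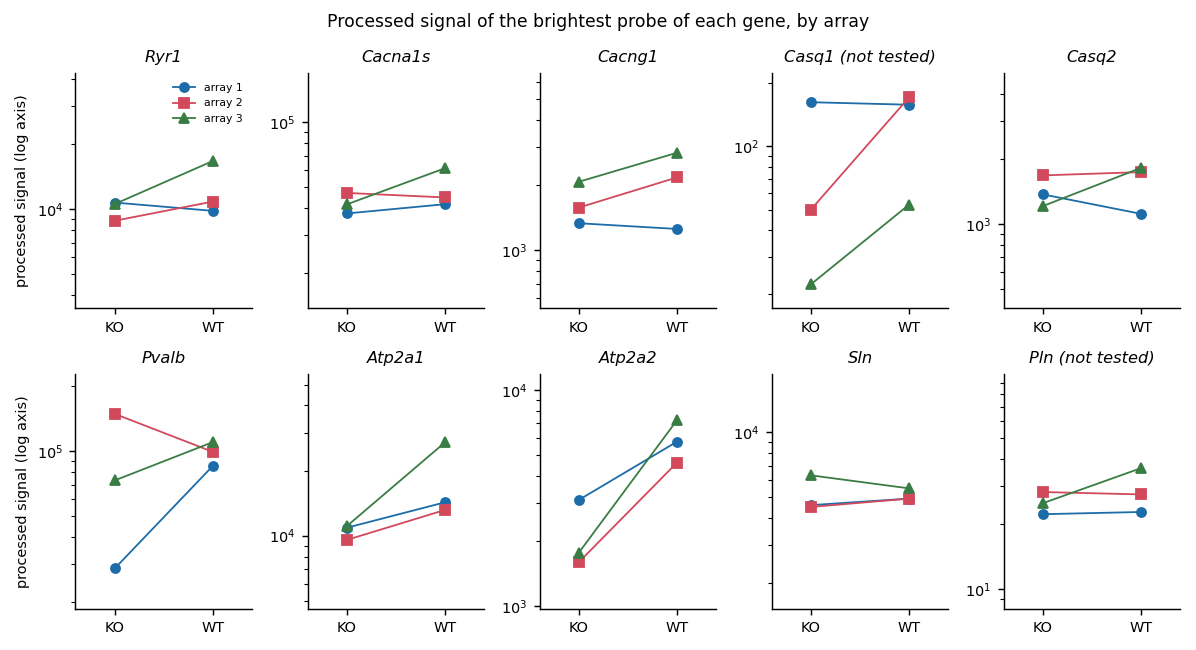
Processed signal (log axis, background-subtracted and dye-normalised by the scanner software) of the brightest probe of each of the 10 calcium genes, in KO (left) and WT (right). Lines join the 2 samples of an array. All KO points of Atp2a1 and Atp2a2 lie below all WT points, while the 2 genotypes overlap in the other 8 panels.

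Ryr1 encodes the calcium release channel of the sarcoplasmic reticulum. Its processed signals were 10743, 8852 and 10579.7 in KO, against 9836, 10860.25 and 16739 in WT. The WT sample of array 3 was the highest of the 6, the KO sample was the higher one on array 1, and the genotypes overlapped. The log2 ratios were 0.080, -0.39 and -0.57, with a mean of -0.29 (SD 0.33, n = 3, limma adjusted p = 0.378). Without array 3 the mean was -0.15, and on processed signals without array 3, a setting chosen after seeing the data, it was -0.084.

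Cacna1s encodes the pore-forming, voltage-sensing subunit of the L-type calcium channel. Its brighter probe gave 37767, 47000.4 and 41608 in KO and 41695, 44801 and 61151 in WT. KO was higher on array 2 and lower on arrays 1 and 3 by these signals. After loess the log2 ratios were 0.039, 0.36 and -0.35, with a mean of 0.016 (SD 0.35, n = 3, limma adjusted p = 0.972), and the processed signals gave a mean of -0.21. Without array 2 the mean after loess was -0.15. The 201 brightest genes, which include Cacna1s, also sat above 0 after loess, with a median of 0.24, so the sign of this gene depended on the scaling. A second, dimmer probe of Cacna1s gave 708 and 379 in KO and 793 and 534 in WT on arrays 1 and 2, with log2 ratios of -0.16 and -0.14. On array 3 that spot carried an outlier flag, with signals of 107899 in KO and 117316 in WT, and the probe was not tested.

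Cacng1 encodes the gamma subunit of the same channel. It gave 1332, 1574 and 2072 in KO, against 1253, 2171 and 2823 in WT. KO was below WT on arrays 2 and 3 by these signals and above it on array 1, and the genotypes overlapped. The log2 ratios after loess were all below 0, at -0.042, -0.37 and -0.32, with a mean of -0.24 (SD 0.18, n = 3, limma adjusted p = 0.299). A ratio below 0 on all 3 arrays was found for 3 of the 8 calcium genes, or 37.5%, and for 18.3% of all genes. Within the release machinery, Ryr1 minus Cacna1s was 0.041, -0.75 and -0.22 on the log2 scale, so the pair did not keep 1 relation across the arrays.

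Casq1, a calsequestrin of skeletal muscle fibres, was too dim to test. With 1 probe, low expression and a weak probe cannot be told apart. Its signals were 161, 50.2 and 22.2 in KO and 157, 170.3 and 53.0 in WT, and it was above background on 1 KO and 2 WT arrays. Its log2 ratios, which the offset of 50 pulls towards 0, were -0.010, -0.098 and -0.021.

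Casq2, a calsequestrin of slow fibres and heart, was measured on every array. It gave 1370.1, 1678 and 1210.04 in KO, against 1113, 1737 and 1819 in WT. KO was higher on array 1 and lower on array 3, and the genotypes overlapped. The mean log2 ratio was -0.11 (SD 0.28, n = 3, limma adjusted p = 0.729), from values of 0.18, -0.13 and -0.38, and without array 3 it was 0.025. Casq2 and Atp2a2 are both genes of slow fibres, and within each array the log2 ratio of Casq2 exceeded that of the brighter Atp2a2 probe by 0.92, 1.00 and 1.17 (mean 1.03, SD 0.13, n = 3). With the second Atp2a2 probe the relation did not hold, since that probe minus Casq2 gave -0.18, 0.27 and 0.50.

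Pvalb encodes parvalbumin, the cytosolic calcium buffer of fast fibres. Its brighter probe gave 28739, 149041 and 73391 in KO and 85779, 99391 and 110414 in WT. The KO samples held both the lowest and the highest signal of the 6, and the WT samples lay closer together. The log2 ratios were -1.38, 1.11 and -0.19, and the mean of -0.15 was far smaller than the SD of 1.25 (n = 3, limma adjusted p = 0.911). Without array 1 the mean was 0.46, and without array 2 it was -0.79. The second probe had the same order of arrays, with signals of 525, 3556 and 1690.1 in KO and 1338, 1396 and 2639.9 in WT. Its log2 ratios were -0.72, 0.51 and -0.46, a mean of -0.22 (SD 0.65, n = 3), and on array 2 its local KO background was 52, where the median of that channel was 17. Both probes of Pvalb therefore had KO above WT on array 2 and below it on arrays 1 and 3.

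The summed signal of the 9 fast fibre markers varied between the arrays in both genotypes. It was 145993.6, 291868 and 208979 in KO, against 153738, 285222 and 205415 in WT. The 2 samples of an array thus lay near each other. Spots flagged as outliers were kept in this sum, and 7 of the 9 markers were tested, against all 9 with flagged spots kept. The 2 brightest tested markers varied less. Tnnt3 gave 50976, 56035 and 61638 in KO and 52420, 64258 and 58759 in WT. Myh2 gave 16745, 17057 and 18908 in KO and 12807, 17778 and 16896 in WT. Of the fast markers tested, Actn3, the actinin of fast fibres, had log2 ratios of -1.39, 0.23 and -1.24, highest on array 2 as Pvalb was. It was picked after its values were seen, and other fast markers differed from it. Mylpf, a fast myosin light chain picked in the same way, had -0.15, -0.67 and -0.57, and the fast myosin Myh2 had 0.31, -0.15 and 0.28, both lowest on array 2. The part of fibre composition in the Pvalb values was not tested.

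**Figure D2:**
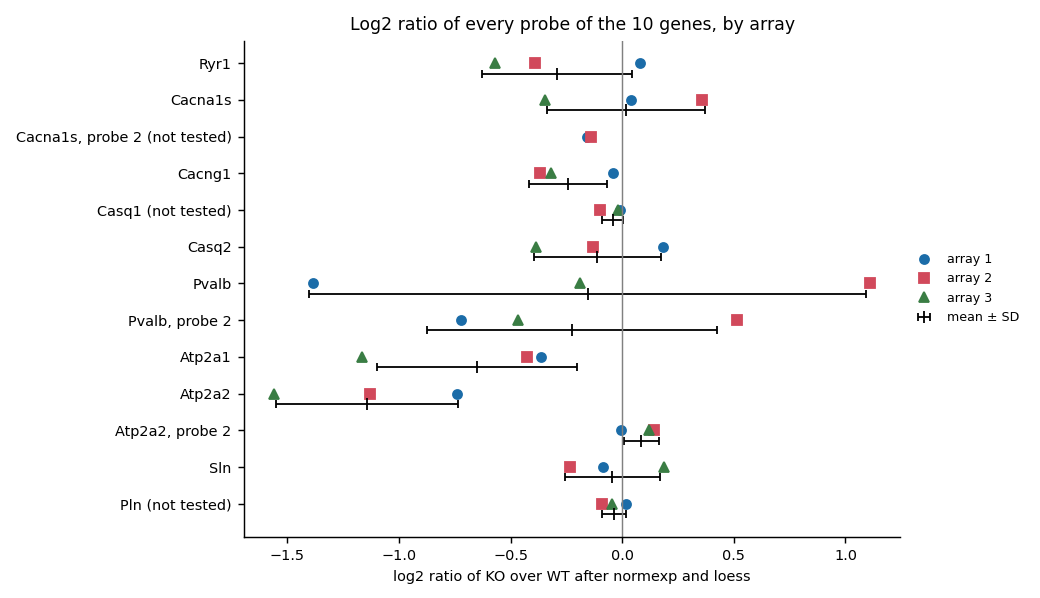
Log2 ratio of KO over WT after normexp and loess for the 13 probes of the 10 genes, 1 point per array, with mean ± SD over the 3 arrays as a bar (no bar where a spot was left out). The brighter Atp2a2 probe lies between -1.56 and -0.74, its second probe lies near 0, and the Pvalb probes spread to both sides of 0.

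Atp2a1 encodes SERCA1, the calcium pump of fast fibres. It gave 10879, 9555 and 11064 in KO (mean 10499, SD 823, n = 3) and 14266, 13149.8 and 27009.6 in WT (mean 18142, SD 7700, n = 3). The KO signals lay close together and all below the WT signals, and the WT sample of array 3 was far above the other 2. The log2 ratios were -0.36, -0.42 and -1.17, with a mean of -0.65 (SD 0.45, n = 3, limma adjusted p = 0.159). Without array 3 the mean was -0.39. A mean as low or lower was found for 0.283% of all tested genes, and the 201 genes nearest in intensity had a median of 0.042.

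Atp2a2 encodes SERCA2, the pump of slow fibres and heart. The brighter of its 2 probes gave 3099, 1597 and 1767 in KO (mean 2154, SD 823, n = 3), against 5767, 4616 and 7253 in WT (mean 5879, SD 1322, n = 3). Every KO sample was below every WT sample. The log2 ratios were -0.74, -1.13 and -1.56, with a mean of -1.14 (SD 0.41, n = 3, limma adjusted p = 0.0809), which missed the threshold. From the processed signals, to which no offset is added, the mean was -1.49 (SD 0.57, n = 3, limma adjusted p = 0.404). A mean as low or lower was found for 0.0404% of all tested genes, and the 201 genes nearest in intensity had a median of -0.067.

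The second probe of Atp2a2 did not show that difference. Its accession is the same RefSeq transcript as that of the brighter probe, and it gave 681, 1071 and 1419 in KO and 646, 891 and 965 in WT. KO was above WT on each array by these signals, although the genotypes overlapped. The log2 ratios of these signals were 0.077, 0.27 and 0.56 (mean 0.30, SD 0.24, n = 3). The log2 ratios after loess were -0.0032, 0.14 and 0.12 (mean 0.086, SD 0.078, n = 3), and in the fit over all 8391 tested probes the limma adjusted p was 0.644, against 0.0824 for the brighter probe. In that fit 0 of the 10 tested probes of the calcium genes passed, and 0.0119% of all probes did. The brighter probe's ratio minus the second probe's was -0.74, -1.27 and -1.68, a mean of -1.23 (SD 0.47, n = 3). With the mean of both probes in place of the brighter one, the log2 ratio of the gene was -0.53 (limma adjusted p = 0.0871). Where on the transcript each probe lies is not given in the sources used here.

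Between the pumps, Atp2a2 was lower relative to Atp2a1 on each array, by log2 differences of -0.38, -0.71 and -0.39 (mean -0.49, SD 0.19, n = 3), as measured by the brighter probe of Atp2a2. With its second probe the differences were 0.36, 0.57 and 1.28, on the other side of 0. The defining heart markers other than Myh6 were at background on every array, and the summed signal of the heart list was 1571 to 1917 in KO and 1667 to 2142 in WT. Of the 6 slow fibre markers tested, all 6 had a mean ratio above 0 after loess, against 4 with processed signals and 1 with centring and no loess. At an unadjusted limma p under 0.05, 3 of them were higher in KO, where 5.9% of all genes were. These were Myl3, Tnnt1 and Tnnc1, with means of 0.49, 0.40 and 0.28. Bright genes also sat above 0 after loess, with a median of 0.24 beside Myl3 and Tnnt1 and 0.12 beside Tnnc1. Of these 3, Tnnt1 had a second tested probe below 0 on each array, with a mean ratio of -0.19. The median log2 ratio of the 6 was 0.22 after loess and -0.28 with centring and no loess. The summed signal of all 8 slow fibre markers was 260075 to 277878 in KO and 226653 to 298043 in WT. Myl3, the slow myosin light chain, had ratios of 0.67, 0.48 and 0.32 (mean 0.49, limma adjusted p = 0.0895), on the other side of 0 from Atp2a2 after loess but at -0.35 with centring and no loess.

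**Figure D3:**
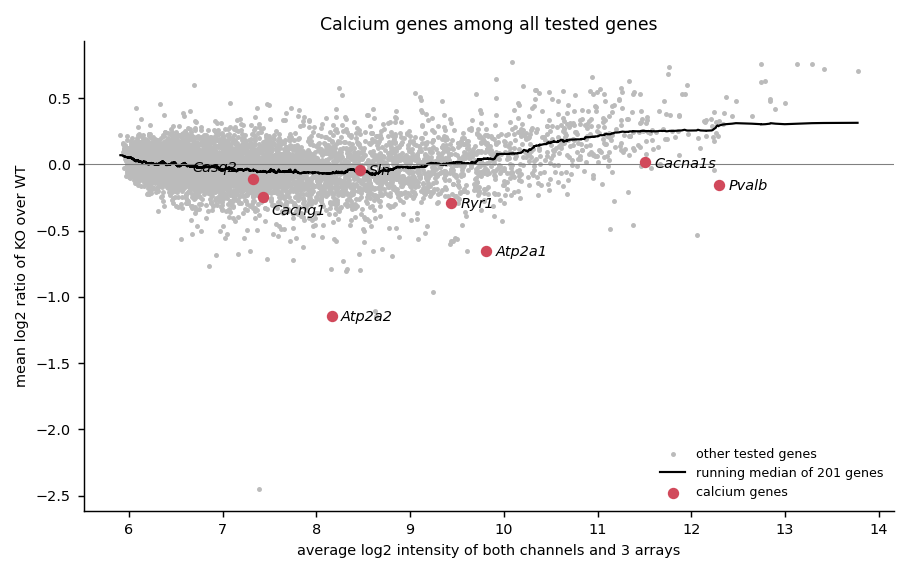
Mean log2 ratio of KO over WT (vertical axis) against average log2 intensity of both channels (horizontal axis) for 7424 tested genes or transcripts, with the 8 tested calcium genes in red and a running median of 201 genes in black. The running median uses fewer genes at both ends. Atp2a2 at -1.14 (by its brighter probe) and Atp2a1 at -0.65 lie far below it, and Pvalb and Cacna1s are among the 201 brightest genes, whose median was 0.24.

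Sln encodes sarcolipin, which inhibits the SERCA pumps. It gave 4598, 4510.3 and 6316 in KO, against 4930.4, 4928 and 5498 in WT. KO was slightly lower on arrays 1 and 2 and higher on array 3, and the genotypes overlapped. The log2 ratios were -0.088, -0.23 and 0.19, with a mean of -0.044 (SD 0.21, n = 3, limma adjusted p = 0.888), and without array 2 it was 0.050. By its brighter probe the ratio of Atp2a2 lay below that of Sln on each array, with a mean log2 difference of -1.10 (SD 0.57, n = 3), whereas its second probe minus Sln gave 0.084, 0.37 and -0.070.

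Pln encodes phospholamban, the SERCA inhibitor best known from heart. Its signals of 22.2, 28.2 and 25.0 in KO and 22.8, 27.4 and 36.3 in WT never stood clear of background. No ratio could be read for it, and it was not tested.

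The promoters in the RefSeq table (GRCm38.p6, 250 bases before to 50 after each start) cover 7 of the 10 genes with 8 sequences, 2 of them for Pvalb, and Atp2a2, Sln and Cacng1 have no entry there. Shown are those of Atp2a1, the pump with an entry, and of Casq2 and Pvalb, a slow and a fast fibre buffer whose ratios differed between arrays. The sequences run 5′ to 3′ on the gene's strand. Capitals mark an E-box (CANNTG, which reads the same on both strands) or a MEF2 site, the letters known for binding of myogenic and MEF2 factors, searched on both strands.
Atp2a1, chr7:126463024-126463323, minus strand: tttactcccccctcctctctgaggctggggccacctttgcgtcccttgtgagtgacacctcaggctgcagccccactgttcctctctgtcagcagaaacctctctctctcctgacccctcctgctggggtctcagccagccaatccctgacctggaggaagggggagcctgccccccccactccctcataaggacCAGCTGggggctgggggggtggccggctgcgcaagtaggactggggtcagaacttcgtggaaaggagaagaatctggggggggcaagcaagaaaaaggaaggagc
Casq2, chr3:102086165-102086464, plus strand: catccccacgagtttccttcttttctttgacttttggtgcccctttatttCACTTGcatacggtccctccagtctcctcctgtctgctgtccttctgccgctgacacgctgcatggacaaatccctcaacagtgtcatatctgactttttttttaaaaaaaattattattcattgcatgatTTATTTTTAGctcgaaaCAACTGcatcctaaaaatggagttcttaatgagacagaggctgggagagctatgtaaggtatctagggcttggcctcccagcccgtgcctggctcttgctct
Pvalb, chr15:78206351-78206650, minus strand: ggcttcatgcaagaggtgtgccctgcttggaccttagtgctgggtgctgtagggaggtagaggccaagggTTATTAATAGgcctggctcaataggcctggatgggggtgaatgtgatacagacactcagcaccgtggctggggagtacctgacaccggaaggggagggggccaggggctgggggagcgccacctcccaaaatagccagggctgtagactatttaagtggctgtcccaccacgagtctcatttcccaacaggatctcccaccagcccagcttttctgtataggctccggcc
An E-box was present in 6 of the 8 promoters, and 72.3% of all 32851 promoters in the table hold one. A MEF2 site was present in 2, those of Casq2 and Pvalb printed above, which for Pvalb is the reason this start was shown. The other Pvalb promoter, chr15:78204188-78204487, holds 2 E-boxes and no MEF2 site. Over the table, 3.2% of all promoters hold a MEF2 site. A CArG box, the serum response factor's site, was found in 0 of the 8 and in 1.6% of all promoters. The promoter of Atp2a1 holds 1 E-box and neither other motif. These matches describe letters, and binding was not measured.

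The wider calcium pathway was described with lists that leave out the 10 genes. Of 22 release and triad genes 14 were tested, with 7 ratios above and 7 below 0 and a median of -0.0018. Of 25 uptake, entry and extrusion genes 14 were tested, with 6 above and 8 below 0 and a median of -0.0053. Of 26 calcium sensors, buffers and effectors 16 were tested, with 12 above and 4 below 0 and a median of 0.058, against 4 above and 12 below 0 with centring and no loess. None of the tested genes of these lists passed the adjusted threshold in limma. At an unadjusted p under 0.05, 3 release genes were higher in KO and 2 lower, and 1 uptake gene was higher and 1 lower. Of the sensor genes 1 was lower and 0 were higher. Over all genes 5.9% were higher and 7.53% lower. The higher release genes Jsrp1, Srl and Speg had means of 0.39, 0.33 and 0.19. Genes of like intensity also sat above 0 after loess, with medians of 0.23, 0.24 and 0.24 over 201 genes. For Srl and Speg these were the 201 brightest genes. Smdt1, the higher uptake gene, had 0.18, beside a median of 0.19.

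**Figure D4:**
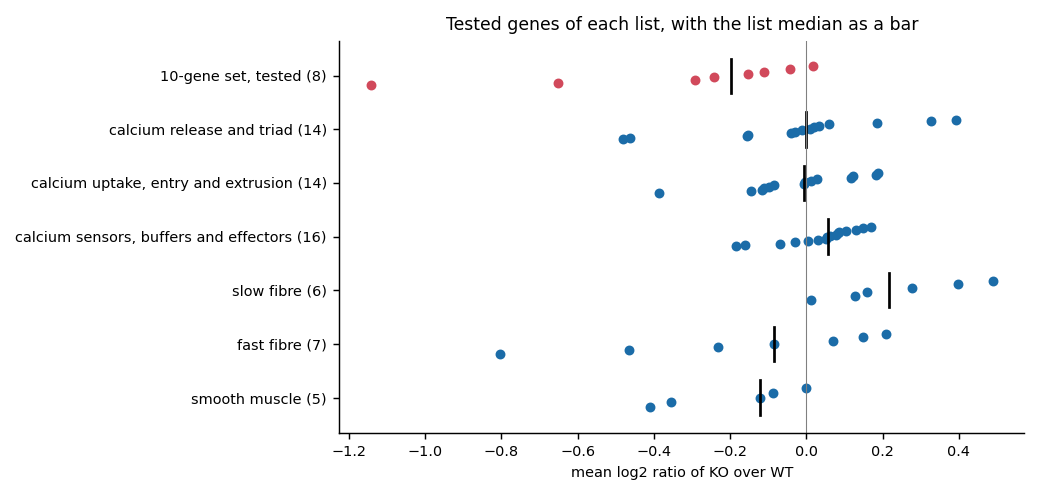
Mean log2 ratio of KO over WT of each tested gene (points) in the 10-gene set, 3 wider calcium lists and 3 marker lists, with the number tested in brackets and the list median as a black bar. The 10-gene set has its median at -0.20, the release and uptake lists have theirs near 0, and the slow fibre list lies wholly above 0, as it does not with centring in place of loess (1 of 6 above 0).

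In the release list the smallest p belonged to Asph, whose locus encodes an aspartyl hydroxylase and also junctin, a protein of the release complex. Its brightest probe gave 2204, 1888 and 1904 in KO and 2920.1, 2607 and 3041 in WT. KO lay below WT without overlap, as in 3.77% of all tested genes. The log2 ratios were -0.48, -0.39 and -0.58 (mean -0.48, SD 0.092, n = 3, limma adjusted p = 0.0860). Its other tested probes, which match other transcripts of the locus, had mean ratios of 0.00037 and 0.051. Jsrp1, a triad protein that binds the calcium channel and calsequestrin, had ratios of 0.17, 0.54 and 0.47 (mean 0.39, SD 0.20, n = 3, limma adjusted p = 0.149), and its mean was -0.25 with centring and no loess. Srl encodes sarcalumenin, a calcium-binding protein of the reticulum, and its ratios of 0.63, 0.19 and 0.16 averaged 0.33 (limma adjusted p = 0.270), against -0.050 with processed signals and -0.44 with centring.

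Among entry genes, Orai1, the pore of store-operated calcium entry, gave 5974, 5432 and 4749 in KO, against 6385, 6327 and 6792 in WT. Every KO sample was below every WT sample, as in 3.77% of all tested genes, and the gene was named for the smallest p of its list. The mean log2 ratio was -0.39 (SD 0.17, n = 3, limma adjusted p = 0.137). Its relative Orai2 was dim and lay on the other side of 0, with 403, 289.7 and 337 in KO and 281, 277 and 164 in WT and a mean of 0.19 (limma adjusted p = 0.382). Smdt1, a subunit of the mitochondrial calcium uniporter, had a mean of 0.18 (limma adjusted p = 0.337). Among sensors and effectors Nfatc4, a calcineurin-dependent transcription factor, had a mean of -0.18 (limma adjusted p = 0.361), and Camk2d, a calcium-dependent kinase, had 0.13 (limma adjusted p = 0.550) by its brightest probe. A second tested probe of Camk2d lay below 0 on each array, with a mean of -0.055. The mean of the tested Camk2d probes was 0.038.

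Over the 3 arrays, the tested genes whose log2 ratios lay closest to those of Atp2a2 by Euclidean distance were Chac1, Nrap and Actg1, at distances of 0.43, 0.73 and 0.77. Chac1, an enzyme that breaks down glutathione, had ratios of -0.76, -0.97 and -1.15 (mean -0.96, limma adjusted p = 0.0481, and 0.0557 without array 3). Nrap, an actin-anchoring protein of muscle, had -0.40, -1.73 and -1.31 (mean -1.14, limma adjusted p = 0.111). Actg1, a cytoplasmic actin, had -0.33, -0.89 and -0.96 (mean -0.72, limma adjusted p = 0.0898).

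The direction of Atp2a2 depended on the probe, since its second probe alone had a mean of 0.086 after loess and 0.30 by processed signals. The call of Atp2a2 depended on the processing. With the brighter probe, or the mean of both, the log2 ratio stayed below 0 under all 17 alternatives, between -1.49 and -0.53, and its limma adjusted p ranged from 0.00383 to 1.00, with 7 alternatives under 0.05. Alternatives that changed only the filter, the moderation, the channels or the scaling of intensities between arrays could not move this ratio, only its p. Without array 1 the ratio of Atp2a2 was -1.34 (limma adjusted p = 0.0369), without array 2 it was -1.15 (0.0302) and without array 3 it was -0.94 (0.0557). Atp2a1 stayed between -1.13 and -0.39. When ratios were centred on the tested probes with no loess, 6 of the 8 calcium genes passed, but so did 2658 of all 7424 genes, and genes of like intensity then had medians of -0.33 beside Atp2a2 and -0.45 beside Atp2a1.

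**Figure D5:**
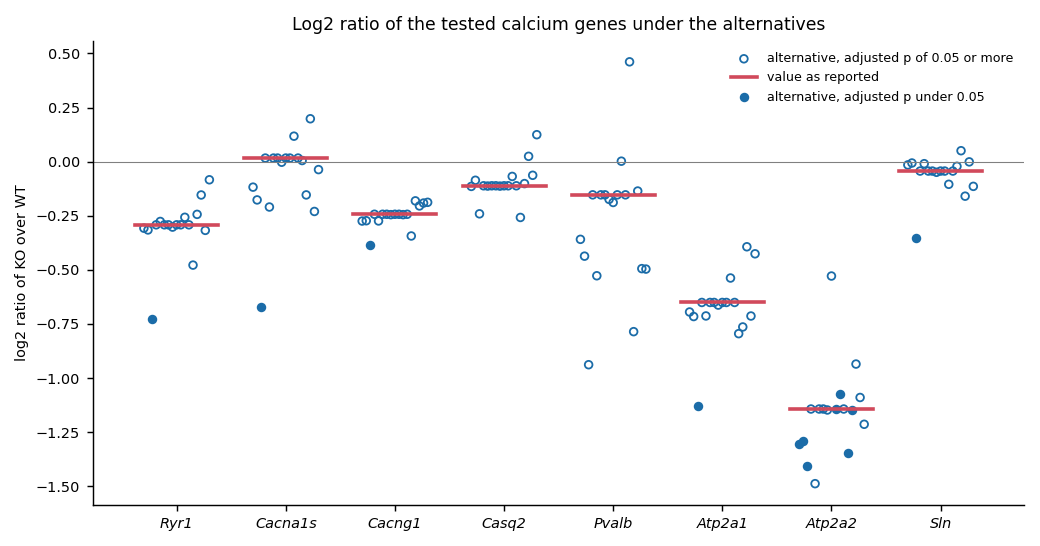
Log2 ratio of KO over WT of the 8 tested calcium genes under 17 alternative settings (circles, filled where the limma adjusted p was under 0.05) and as reported (red bars). Atp2a2 spans -1.49 to -0.53 and Atp2a1 -1.13 to -0.39, while Pvalb spans -0.94 to 0.46.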

How the data were processed

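RNA of SOL muscle, as 3 KO and 3 WT samples, was measured on 3 two-colour Agilent arrays, with KO labelled in Cy5 and WT in Cy3 per the labels' protocols. The deposited scanner files hold, per the file headers, for each spot the median intensity, the background around it, flags for outliers and a processed intensity that Feature Extraction 12.0.3.1 background-subtracted and dye-normalised. The submitters' processing notes name version 11.5. The deposited series matrix holds a log10 ratio of KO over WT, which departed from the ratio in the scanner files by at most 5e-10, 5e-10 and 0.0050 on arrays 1 to 3.

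The log2 ratios came from the median intensity with normexp (offset 50) and loess within arrays, using limma 3.58.1 and the package data.table (version 1.17.8) in R 4.3.3. The offset of 50 is large against median backgrounds of 17 in KO on each array and 35, 36 and 32 in WT, so ratios of dim probes are understated. On arrays 1 to 3, 536, 572 and 1002 spots flagged as outliers were dropped from the ratios. The processed signals given for each array and the summed signals kept them. The alternative fitted on processed signals left them out. No spot was saturated (0 of 59305). Of 55681 probes, 8391 were tested, namely those with no missing array whose KO channel, WT channel or both stood well above background throughout. Names came by accession through RefSeq (GRCm38.p6), which matched 28664 of 29472. The brightest tested probe stood for a gene. Ratios were tested against 0 in limma with Benjamini-Hochberg adjustment over 7424 genes or transcripts, both directions, at a threshold of 0.05. Each array pairs 1 KO with 1 WT sample, and SDs are between arrays. The number of arrays limits the precision. The steps were tested on simulated data.

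The members, lists and tests were chosen with earlier results of these data known. The rule for named genes took the 10 members, Mettl21c, the 3 genes of smallest p in each pathway list, the 2 brightest markers of the slow, fast, smooth muscle and heart lists, and the 3 genes closest to the member of smallest p. One gene that the rule takes is not reported here. Actn3, Mylpf, Speg and Hba-a1 were chosen after their values were seen. Alternatives changed the background, offset, normalisation, filter, probes, moderation, weights, channels and arrays used.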

Additional observations from a re-analysis of the deposited data

How the results depend on the processing

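Over 17 alternatives the 8 tested calcium genes kept their direction and side of the threshold in 112 of 136 values and changed sign in 13. Some alternatives changed only the filter, moderation, channels or scaling of intensities between arrays. They could not change these ratios, so part of the agreement in sign was fixed in advance. Of the 136 values 12 passed the threshold, 1 of them with a changed sign (Cacna1s with centring). Atp2a1, Atp2a2, Ryr1 and Cacng1 kept their sign throughout, with Atp2a2 measured by its brighter probe or the mean of both probes. Dye and genotype cannot be told apart, and dim probes are limited by signal over background. The test of ratios within arrays pairs 1 KO with 1 WT sample, and with the 6 channels as separate samples and no replicate block there were 0 calls (236 at an unadjusted p under 0.05).

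Against 3 calls over all genes (all lower in KO) in limma, there were 25 with an offset of 16 (22 lower, 3 higher), 5 without background subtraction, 2658 with centring and no loess (1644 lower, 1014 higher), 85 with robust and trended moderation (44 lower, 41 higher) and 62 with array weights (17 lower, 45 higher). There were 0 with processed signals (805 unadjusted), 0 without the filter on dim probes (2468 unadjusted), 0 with both channels above background (935 unadjusted), 1 with outlier-flagged spots kept, 1 with the mean of a gene's probes, 1 with loess on the tested probes and 0 with processed signals without replicate 3 (873 unadjusted), the last 2 settings chosen after seeing the data. Leaving out 1 array gave 0 to 16 calls over all genes, with 9, 16 and 0 without arrays 1, 2 and 3. It gave 0 to 1 calcium genes called, 0 to 1 of their probes and 0 to 1 pathway genes. Against 0 calcium genes called, 1 (Atp2a2) was called with an offset of 16, without background subtraction, with robust moderation and with array weights, and 6 with centring. Against 0 of their probes called, 1 was called with an offset of 16, with robust moderation and with array weights, and 6 with centring. Against 0 pathway genes called, 17 were called with centring, 1 with robust moderation and 1 with array weights.

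Signs turned as follows. With an offset of 16 Cacna1s was -0.12. Without background subtraction Cacna1s was -0.18 and Tnnt3 -0.015. With centring and no loess Cacna1s was -0.67, Jsrp1 -0.25, Srl -0.44, Smdt1 -0.42, Myl3 -0.35, Tnnt1 -0.27, Tnnt3 -0.52, Myh2 -0.36 and Myh6 -0.19. With processed signals Cacna1s was -0.21, Srl -0.050, Tnnt1 -0.036, Tnnt3 -0.056 and Myh6 -0.13. With outlier-flagged spots kept Cacna1s was -0.0027 and Acta2 0.0027. With array weights Pvalb was 0.0021. With loess on the tested probes Cacna1s was -0.23 and Tnnt3 -0.075. With processed signals without replicate 3 Casq2 was 0.12, Cacna1s -0.037 and Tnnt3 -0.12. Leaving out 1 array gave Pvalb -0.79 to 0.46, Cacna1s -0.15 to 0.20, Sln -0.16 to 0.050, Casq2 -0.26 to 0.025, Myh6 -0.10 to 0.12, Acta2 -0.21 to 0.26 and Tagln -0.70 to 0.0085. The cause of these changes was not tested.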

Other observations

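Other cell types that a whole muscle holds were read from their marker lists. Of 9 smooth muscle markers 5 were tested and all 5 had a mean log2 ratio below 0, with a median of -0.12, while without array 2 the median was 0.0085 and 3 of 5 lay above 0. Tagln, a smooth muscle actin-binding protein, had -0.15, -1.25 and 0.17, and Acta2, smooth muscle actin, had 0.11, -0.52 and 0.41, so both were lowest on array 2. Of 8 macrophage and leukocyte markers 5 were tested, again all with a mean below 0 (median -0.25), with 2 lower at an unadjusted p under 0.05. Over all genes 50.9% lay below 0 and 7.53% were lower at that p. The median of these 5 markers was -0.37, -0.32 and 0.017 on arrays 1 to 3. Of 8 endothelial markers 4 were tested (median -0.058) and of 6 adipocyte markers 4 (median 0.12). Of 7 red blood cell markers 3 were tested and all 3 lay above 0 (median 0.21), with 2 higher at an unadjusted p under 0.05, against 5.9% of all genes. The summed signal of the 6 with a probe was 78377, 77672 and 129804 in KO and 44521, 53834 and 32844 in WT, without overlap. Flagged spots were kept in this sum, and 5 of these markers were tested when such spots were kept. Hba-a1, an alpha globin with a near-identical copy in the genome, had log2 ratios of 0.96, 0.37 and 0.98 (mean 0.77, limma adjusted p = 0.0883). None of these markers passed the adjusted threshold in limma.

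Among fibre markers, the brightest probe of Tnnt1, the slow troponin T, had ratios of 0.40, 0.68 and 0.11 (mean 0.40). Its second tested probe had -0.057, -0.055 and -0.47 (mean -0.19), and the mean of both probes was 0.10. The fast troponin T gene Tnnt3 had 0.15, 0.15 and 0.33 (mean 0.21), and the fast myosin Myh2 had 0.31, -0.15 and 0.28 (mean 0.15). The second tested probe of Tnnt3 had a mean of -0.073. With centring in place of loess the brightest probes of Tnnt1, Tnnt3 and Myh2 turned to -0.27, -0.52 and -0.36. Of the 7 fast markers tested 3 lay above 0 and 4 below, with a median of -0.086.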
